A study of Homo sapiens with 22 samples.

Results

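The genes described here are 10 members of the nuclear factor kappa B (NF-κB) pathway, taken by their symbols from the deposited mRNA-seq tables of 2 acute myeloid leukemia (AML) cell lines, 10 of the 20411 genes listed in each table. They comprise the transcription factor subunits NFKB1, NFKB2 and RELB, the inhibitors NFKBIA and TNFAIP3, the ubiquitin ligase BIRC3, and the secreted mediators CXCL8, TNF, IL1B and CCL3. All 10 were present in both tables and had a mean of at least 1 RPKM (reads per kilobase of gene, scaled to the reads of the library) over the 6 libraries of each cell line, the minimum for the test. CCL3 in MOLM-13 cells reached that minimum through its FP54 libraries, since its DMSO mean was 0.791 RPKM.

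NF-κB is a family of dimeric transcription factors held in the cytoplasm by inhibitor (IκB) proteins until receptors such as those for TNF, IL-1 and microbial products set off their degradation. NFKB1 and RELA belong to the canonical arm of the pathway, while NFKB2 and RELB form the main dimer of the noncanonical arm, which runs through the kinase NIK. Many NF-κB targets encode the pathway's own subunits and inhibitors, and in myeloid cells its other well-known targets are inflammatory cytokines and chemokines and survival genes.

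The series measured the response of leukemia cells to FP54, a compound built to degrade FTO, the enzyme that removes the m6A mark from RNA. MOLM-13 is a monocytic AML line with a KMT2A rearrangement and NB4 a promyelocytic line. Each line received FP54 at 2 μM or its solvent, DMSO, and was harvested 48 hours later, with no genetic change named for either treatment, and poly(A) RNA was sequenced from 3 libraries per group (12 libraries of the 22 samples in the labels). Nothing in the labels states whether the 3 libraries came from separate cultures, so the tests measure the spread between these libraries, which may be technical.

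Reads on genes, worked back from the RPKM steps, ranged from 16299701 to 17346913 in MOLM-13 DMSO and from 5829730 to 19191055 in MOLM-13 FP54 libraries, where replicate 2 was the shallowest of the series. NB4 libraries held 20654055 to 22344265 reads (DMSO) and 10595647 to 13071303 reads (FP54). HOXA9, MEIS1 and FLT3, markers of MOLM-13 cells, summed to 85.5 to 122 RPKM in its DMSO libraries and to 5.58 to 6.35 RPKM in those of NB4. The promyelocytic granule genes of NB4 summed to 2150 to 2411 RPKM (DMSO) and 1115 to 1183 RPKM (FP54), and ELANE was below 1 RPKM there. Monocytic and myeloid markers summed to 687 to 733 RPKM in MOLM-13 DMSO and 769 to 1002 RPKM in MOLM-13 FP54 libraries, and to 125 to 149 and 117 to 132 RPKM in NB4. Of this list, CD14 was below a mean of 1 RPKM in both lines. Of 5 T cell markers, TRAC in both lines and CD3D in NB4 exceeded a mean of 1 RPKM, with list sums of 28.0 to 32.4 (DMSO) and 14.0 to 15.8 RPKM (FP54) in MOLM-13 and of 21.3 to 30.3 and 34.8 to 39.6 RPKM in NB4. B cell, erythroid and stromal lists summed to at most 1.86 RPKM in any library, and the epithelial list was above that in NB4 alone, through EPCAM, at 7.83 to 11.4 RPKM. The part of these marker shifts in the results below was not tested, and in bulk RNA fewer cells of a type cannot be told apart from less RNA per cell. FTO mRNA, which a degrader of the protein need not change, was at 0.938 to 1.09 (DMSO) and 0.897 to 1.13 RPKM (FP54) in MOLM-13 cells and at 2.52 to 2.86 and 1.95 to 2.11 RPKM in NB4 cells. In NB4 the mean of 416 olfactory receptor genes, which serve the sense of smell, was 0.0017 to 0.0037 RPKM in DMSO and 0.0496 to 0.0549 RPKM in FP54 libraries, against 0.0039 to 0.0083 RPKM in MOLM-13.

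NF-κB dimers bind a short DNA element, the κB site. Promoters are shown first because 6 of the 9 genes with a promoter at hand carry letters that match 1 of the 2 patterns searched. RefSeq promoters (GRCh38.p14, 250 bases before to 50 bases after a start site) were given for 9 of the 10 genes, all but RELB. They were searched on both strands for the 10-letter κB consensus and for the shorter, partly overlapping pattern GGNNNTTCC. Some genes have several starts, so that the 9 genes have 14 promoters. The consensus occurred in 6 of these 14, belonging to 5 genes (NFKB1, NFKB2, NFKBIA, TNFAIP3 and BIRC3), and in 11.3% of all 35116 promoters, and the shorter pattern in 7 of the 14, CXCL8 being added, and in 20.1% of all. At least 1 of the 2 patterns occurred in 7 of the 14 and in 25.6% of all. TNF, IL1B and CCL3 held neither pattern in this window, which says only that these letters are not there. A selection of the matches, with at least 1 for each of these 6 genes, reads as follows on the strand of the gene, 5′ to 3′, with the match in capitals and its distance from the RefSeq start.
NFKB1 at 49 bases upstream, chr4:102501300-102501329 (plus strand): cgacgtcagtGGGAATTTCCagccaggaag
NFKB2 at 107 bases upstream, chr10:102394461-102394490 (plus strand): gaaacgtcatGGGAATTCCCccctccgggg
NFKB2 at 78 bases upstream, chr10:102394490-102394519 (plus strand): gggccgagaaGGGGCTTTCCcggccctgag
NFKBIA at 81 bases upstream, chr14:35404811-35404840 (minus strand): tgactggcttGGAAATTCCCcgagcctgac
TNFAIP3 at 67 bases upstream, chr6:137867182-137867211 (plus strand): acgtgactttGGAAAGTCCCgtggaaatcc
TNFAIP3 at 55 bases upstream, chr6:137867194-137867223 (plus strand): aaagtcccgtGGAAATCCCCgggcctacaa
BIRC3 at 199 bases upstream, chr11:102317275-102317304 (plus strand): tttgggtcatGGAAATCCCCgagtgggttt
BIRC3 at 135 bases upstream, chr11:102317339-102317368 (plus strand): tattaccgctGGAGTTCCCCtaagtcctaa
CXCL8 at 91 bases upstream, chr4:73740468-73740496 (plus strand): tgcaaatcgtGGAATTTCCtctgacataa
The 2 TNFAIP3 windows overlap each other, the first NFKB2 match overlaps a further consensus match shifted by 1 base, and NFKB2 has another RefSeq start with the match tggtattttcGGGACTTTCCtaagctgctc at 21 bases upstream. Not printed are a consensus match of NFKB2 at 176 bases upstream of that other start and a match of NFKBIA to the shorter pattern at 242 bases upstream. A match is a stretch of letters and not a measured binding site.

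Across all genes tested, the FP54 effect was called where limma on log2(RPKM + 0.1) gave an unadjusted p below 0.01 and the fitted change was 0.5 or more on the log2 scale, up or down, a scale that understates the change of low genes. Among the 10 genes, MOLM-13 had 1 call upward (IL1B) and 1 downward (TNFAIP3), beside 9.3% of 9710 genes called higher and 9.04% called lower. NB4 had 6 calls upward (NFKB2, RELB, BIRC3, CXCL8, TNF and IL1B) and 0 downward, beside 18.6% of 9853 genes called higher and 10.7% called lower. The DMSO and FP54 libraries did not overlap for 5 of the 10 genes in MOLM-13, 4 upward (20.2% of all genes tested) and 1 downward (17%), and for 7 in NB4, 6 upward (34.3%) and 1 downward (26.2%). Over all genes tested, the shares without overlap in either direction were 37.1% in MOLM-13 and 60.5% in NB4, and the shares called 18.3% and 29.3%. The median log2 fold change of the 10 genes was 0.50 in MOLM-13 and 0.64 in NB4, against 0.0033 and 0.070 over all genes tested. After median-ratio scaling the NB4 split over all genes turned from 1834 higher and 1050 lower to 1184 higher and 2009 lower, with a median of -0.13, and 4 of the 10 genes were then called higher, RELB and TNF being lost.

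**Figure D1:**
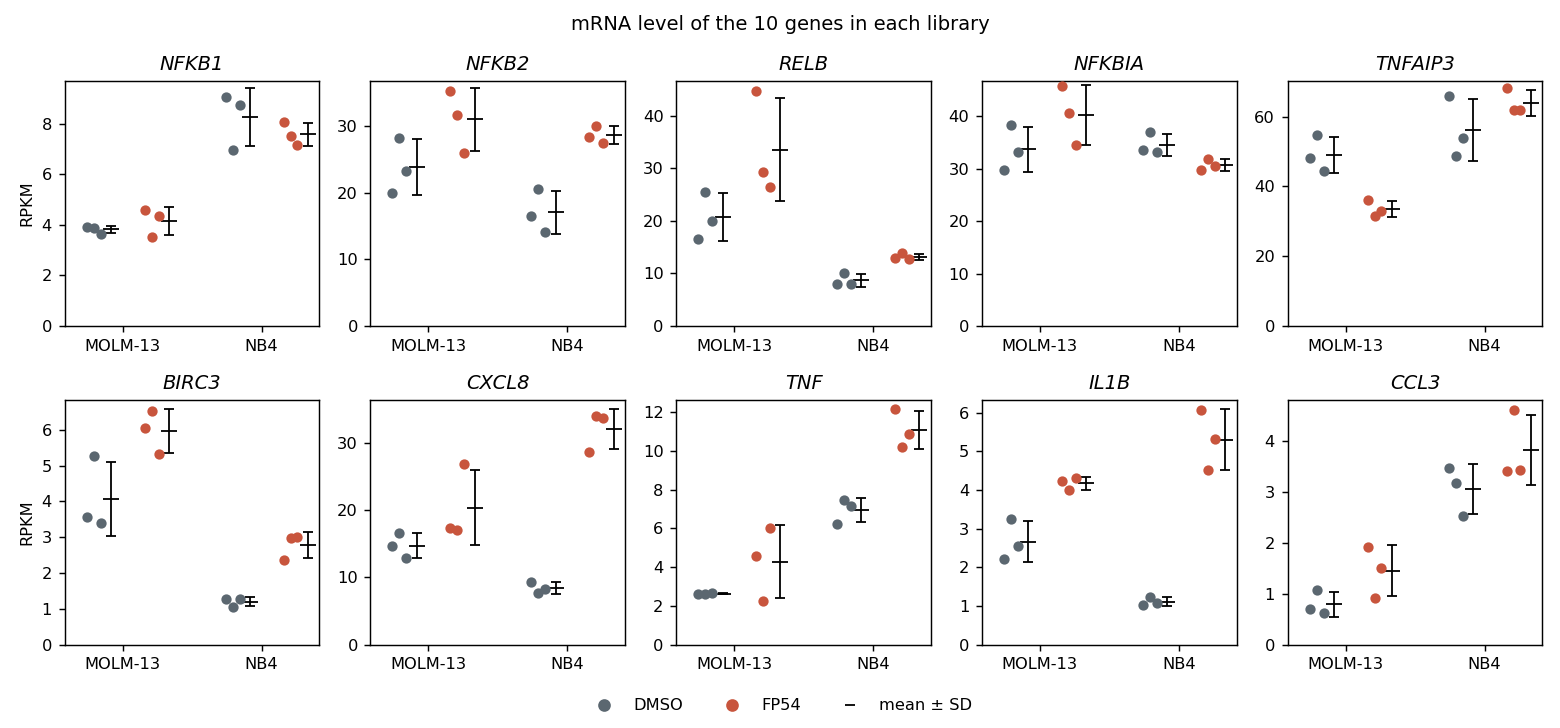
RPKM (linear axis from 0) of the 10 genes in each library of MOLM-13 and NB4 cells, DMSO in grey and FP54 in red, with the mean ± SD of 3 libraries as a bar. CXCL8 and IL1B in NB4 show the widest gaps between treatments relative to their DMSO level, TNFAIP3 in MOLM-13 is the gene whose FP54 libraries all lie below DMSO there, and NFKB1 overlaps in both lines.

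The subunits NFKB2 and RELB were called higher in FP54 libraries of NB4 cells, RELB not after median-ratio scaling, and NFKB1 was called in neither line. The subunit REL, described further below, was also called higher in NB4, a call that several alternatives lost. NFKB1 (chr4:102501330-102617302, GRCh38, plus strand), which encodes p105 and its product p50, was at 3.91, 3.89 and 3.65 RPKM in the DMSO libraries of MOLM-13 and at 4.58, 3.51 and 4.36 RPKM in the FP54 libraries, replicates being given in the order 1 to 3 here and throughout. In NB4 it was at 9.05, 6.94 and 8.75 RPKM with DMSO and 8.05, 7.52 and 7.16 RPKM with FP54. The treatments overlapped in both lines, and the log2 fold change was 0.11 in MOLM-13 (SE 0.16, 95% interval -0.25 to 0.47, adjusted p = 0.669) and -0.11 in NB4 (SE 0.12, 95% interval -0.37 to 0.15, adjusted p = 0.441). The NB4 value depended on the processing. With all libraries kept, it went from -0.31 to -0.10 over the alternatives, with an adjusted p down to 0.0315 in limma, and was never called.

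NFKB2 (chr10:102394110-102402524, plus strand) encodes p100, which acts as an inhibitor until it is processed to the subunit p52. In MOLM-13 it stood at 19.9, 28.2 and 23.2 RPKM with DMSO and 35.3, 31.6 and 26 RPKM with FP54, where DMSO replicate 2 lay above FP54 replicate 3. The log2 fold change there was 0.38 (SE 0.17, 95% interval 0.0025 to 0.76, adjusted p = 0.140) and was not called. In NB4 the values were 16.5, 20.5 and 14.2 RPKM with DMSO and 28.3, 30.0 and 27.4 RPKM with FP54. All 3 FP54 libraries of NB4 lay above all DMSO libraries, and NFKB2 rose from 17.1 ± 3.19 to 28.6 ± 1.31 RPKM (mean ± SD, n = 3), a log2 fold change of 0.76 (SE 0.12, 95% interval 0.48 to 1.03, adjusted p = 5.60e-04).

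RELB (chr19:45001461-45038192, plus strand) encodes the partner of p52. Its MOLM-13 values were 16.6, 25.5 and 19.9 RPKM with DMSO and 44.7, 29.4 and 26.5 RPKM with FP54. The groups did not overlap, but FP54 replicate 1 stood well above the other 2 and the log2 fold change of 0.68 (SE 0.22, 95% interval 0.19 to 1.16, adjusted p = 0.0543) missed the call. Leaving out DMSO replicate 2 (0.84) or FP54 replicate 3 (0.83) made it a call in MOLM-13, and leaving out FP54 replicate 1 brought it to 0.45. In NB4 RELB rose from 7.96, 10.1 and 7.94 RPKM to 13.0, 13.8 and 12.7 RPKM, again with no overlap. The NB4 log2 fold change was 0.61 (SE 0.11, 95% interval 0.37 to 0.85, adjusted p = 0.00101) and 0.41, below the minimum for a call, after median-ratio scaling.

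Neither inhibitor was called higher in either line. NFKBIA (chr14:35401079-35404749, minus strand), which encodes IκBα, the inhibitor that is degraded first and resynthesised when NF-κB is active, was at 29.8, 38.3 and 33.2 RPKM with DMSO and 45.8, 40.6 and 34.5 RPKM with FP54 in MOLM-13. In NB4 it was at 33.6, 36.9 and 33.2 RPKM with DMSO and 29.7, 31.9 and 30.5 RPKM with FP54. The MOLM-13 groups overlapped, while every NB4 FP54 library lay below every DMSO library. Neither line gave a call: the log2 fold change was 0.25 in MOLM-13 (SE 0.16, 95% interval -0.093 to 0.60, adjusted p = 0.275) and -0.17 in NB4 (SE 0.082, 95% interval -0.35 to 0.012, adjusted p = 0.107). With all libraries kept, the NB4 value went from -0.37 to -0.070 over the alternatives, with an adjusted p down to 0.00645 in limma. It stayed under the minimum change for a call.

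TNFAIP3 (chr6:137867214-137883314, plus strand) encodes A20, an enzyme that edits ubiquitin chains and ends NF-κB signalling. It was the only one of the 10 genes called lower in either line. The MOLM-13 DMSO libraries held 48.0, 54.6 and 44.3 RPKM and the FP54 libraries 36.1, 31.5 and 33.0 RPKM, with no overlap. TNFAIP3 fell there from 49.0 ± 5.20 to 33.5 ± 2.33 RPKM (mean ± SD, n = 3), to 68.5% of the DMSO mean and by a fitted log2 change of -0.54 (SE 0.14, 95% interval -0.84 to -0.24, adjusted p = 0.0232). The call was lost without DMSO replicate 2 (-0.46) or FP54 replicate 2 (-0.50), and after quantile normalization (-0.48), since the change then came under the minimum. In NB4, where it was the most abundant of the 10 per length, TNFAIP3 stood at 65.8, 48.7 and 53.8 RPKM with DMSO and 68.3, 61.8 and 61.7 RPKM with FP54. These overlapped, with a log2 fold change of 0.20 (SE 0.11, 95% interval -0.047 to 0.44, adjusted p = 0.158), which came to -0.00055 after median-ratio scaling. A lncRNA gene, WAKMAR2, overlaps its exons on the opposite strand, and since the strand setting of the counting is not stated, reads of the pair cannot be told apart. The same holds for BIRC3 (ENSG00000288528) and CCL3 (CCL3-AS1).

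BIRC3 (chr11:102317484-102339403, plus strand) encodes cIAP2, a ubiquitin ligase of the TNF receptor complex that protects cells from death signals. In MOLM-13 it was at 3.55, 5.27 and 3.40 RPKM with DMSO and 6.06, 6.53 and 5.32 RPKM with FP54. The groups did not overlap, though DMSO replicate 2 lay just under FP54 replicate 3, and the log2 fold change of 0.56 (SE 0.19, 95% interval 0.13 to 0.99, adjusted p = 0.0678) was not called with all libraries and was called, at 0.76, without DMSO replicate 2. In NB4 the values were 1.27, 1.06 and 1.27 RPKM with DMSO (197, 169 and 213 reads) and 2.37, 2.97 and 3.00 RPKM with FP54 (189, 260 and 295 reads). BIRC3 thus rose 2.32-fold in mean RPKM in NB4, a log2 fold change of 1.15 (SE 0.14, 95% interval 0.84 to 1.46, adjusted p = 8.58e-05).

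Of the secreted mediators, CXCL8 and IL1B gave the largest changes among the 10 genes, both in NB4, while the fitted rise of TNF there was below those of BIRC3 and NFKB2 and CCL3 was called in neither line. CXCL8 (chr4:73740519-73743716, plus strand) encodes interleukin-8, a chemokine that attracts neutrophils. Its NB4 libraries held 9.37, 7.65 and 8.34 RPKM with DMSO and 28.7, 34.0 and 33.8 RPKM with FP54, a gap far wider than the spread within either group. CXCL8 rose 3.81-fold in mean RPKM, from 8.45 ± 0.866 to 32.2 ± 2.99 RPKM (mean ± SD, n = 3), and its log2 fold change was 1.92 (SE 0.11, 95% interval 1.68 to 2.15, adjusted p = 4.08e-07). In MOLM-13 it was at 14.6, 16.7 and 12.9 RPKM with DMSO and 17.3, 17 and 27.0 RPKM with FP54. The MOLM-13 groups did not overlap, but 2 of the FP54 libraries lay just above the highest DMSO library and the log2 fold change of 0.44 (SE 0.19, 95% interval 0.012 to 0.87, adjusted p = 0.134) was not called.

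IL1B (chr2:112829751-112836816, minus strand) encodes the precursor of interleukin-1β, a fever-inducing cytokine that itself activates NF-κB. It was the only one of the 10 genes called higher in both lines. In MOLM-13 it was at 2.21, 3.24 and 2.55 RPKM with DMSO and 4.24, 3.99 and 4.31 RPKM with FP54, with no overlap. The log2 fold change was 0.65 (SE 0.18, 95% interval 0.24 to 1.05, adjusted p = 0.0338). That call rested on the full set of libraries, since it was lost without DMSO replicate 1 (0.52), DMSO replicate 3 (0.62), FP54 replicate 1 (0.64) or FP54 replicate 3 (0.62), with adjusted p from 0.0700 to 0.143 in limma. In NB4 IL1B went from 1.01, 1.23 and 1.09 RPKM (63, 79 and 73 reads) to 6.08, 4.51 and 5.31 RPKM (194, 158 and 209 reads). This was the largest rise among the 10 genes in either line, 4.78-fold in mean RPKM and a log2 fold change of 2.15 (SE 0.14, 95% interval 1.84 to 2.46, adjusted p = 1.30e-06). The DMSO level of about 1 RPKM was far above the olfactory receptor mean, which was at most 0.0549 RPKM in any library. Taking that mean from every gene changed no call among the 10 genes. So small a value could hardly change one, so this is a weak check.

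TNF (chr6:31575565-31578336, plus strand) encodes tumor necrosis factor, both a target and an activator of NF-κB. In NB4 it rose from 6.23, 7.44 and 7.15 RPKM with DMSO to 12.1, 10.2 and 10.9 RPKM with FP54, with no overlap. The log2 fold change was 0.67 (SE 0.11, 95% interval 0.43 to 0.90, adjusted p = 5.04e-04), and 0.47, under the minimum for a call, after median-ratio scaling. The MOLM-13 DMSO libraries were nearly level at 2.59, 2.63 and 2.65 RPKM, while the FP54 libraries spread over 4.56, 2.25 and 5.99 RPKM. FP54 replicate 2, the shallowest library with 22 reads of TNF, lay below every DMSO library and the other 2 above. With all libraries the MOLM-13 log2 fold change was 0.57 (SE 0.30, 95% interval -0.084 to 1.23, adjusted p = 0.194) and not called, and without FP54 replicate 2 it was 0.97 and called.

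CCL3 (chr17:36088256-36090169, minus strand) encodes macrophage inflammatory protein 1α, a ligand of the receptor CCR1. It was the lowest of the 10 genes in MOLM-13, at 0.688, 1.07 and 0.617 RPKM with DMSO (17, 26 and 16 reads) and 1.92, 0.919 and 1.5 RPKM with FP54 (55, 8 and 27 reads). NB4 held 3.47, 3.17 and 2.52 RPKM with DMSO and 3.41, 4.60 and 3.43 RPKM with FP54. The groups overlapped in both lines and neither change was called: the log2 fold change was 0.77 in MOLM-13 (SE 0.30, 95% interval 0.11 to 1.44, adjusted p = 0.0963) and 0.31 in NB4 (SE 0.16, 95% interval -0.033 to 0.65, adjusted p = 0.117). Without FP54 replicate 2 the MOLM-13 value was 1.05 and called. CCL3 shares most of its sequence with CCL3L3, so reads could be split between the 2 genes and the values of both are uncertain. CCL3L3 itself was at 2.26, 2.34 and 1.73 RPKM with DMSO and 6.07, 3.62 and 5.09 RPKM with FP54 in MOLM-13, a called log2 fold change of 1.17 (adjusted p = 0.00836, limma), and changed by 0.28 (adjusted p = 0.172) in NB4.

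**Figure D2:**
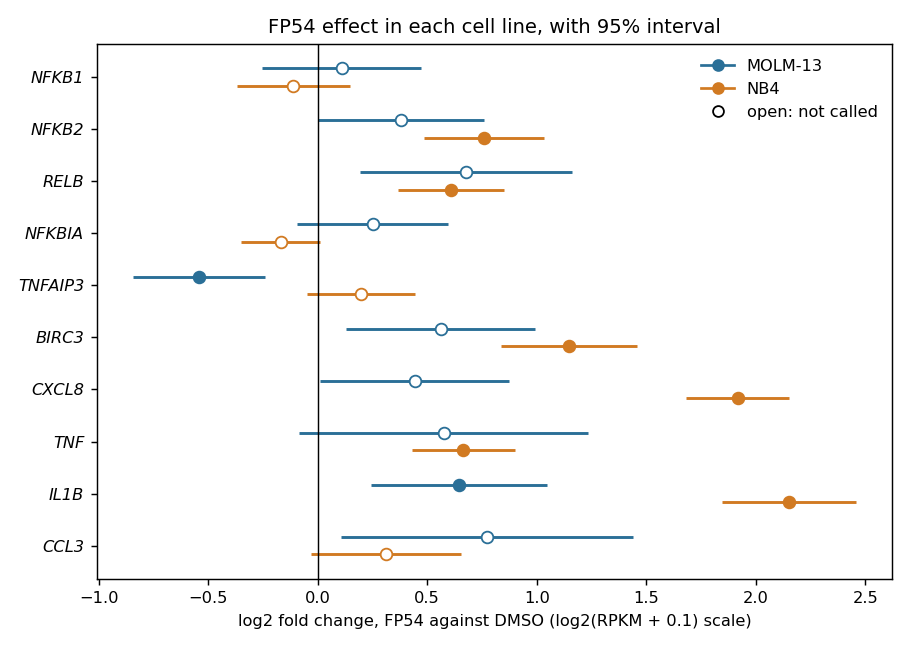
Fitted log2 fold change of FP54 against DMSO (log2(RPKM + 0.1) scale) for the 10 genes in MOLM-13 (blue) and NB4 (orange), with 95% intervals from limma, filled points being called. CXCL8 and IL1B in NB4 lie apart from the rest at 1.92 and 2.15, and TNFAIP3 in MOLM-13, at -0.54, is the one called point below 0.

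Whether the response differed between the lines was tested by the interaction term of a limma fit over the 12 libraries, called at an adjusted p below 0.05. Of the 10 genes, 3 were called, all higher in NB4, beside 14.2% of 8849 genes called in either direction, 10.5% called higher and 3.75% called lower in NB4. The effect on IL1B was larger in NB4 by 1.51 on the log2 scale (SE 0.22, 95% interval 1.03 to 1.99, adjusted p = 4.01e-04) and that on CXCL8 by 1.47 (SE 0.24, 95% interval 0.97 to 1.98, adjusted p = 7.13e-04). For TNFAIP3, lower in MOLM-13 and not called in NB4, the difference was 0.74 (SE 0.18, 95% interval 0.36 to 1.12, adjusted p = 0.0120). These 3 calls held under each alternative scaling, filter and pseudocount in which the gene was tested, and when the libraries of 1 number and treatment were left out of both lines.

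The other 7 genes were not shown to differ between the lines. BIRC3 and NFKBIA came nearest, with differences of 0.59 (SE 0.24, 95% interval 0.063 to 1.11, adjusted p = 0.131) and -0.42 (SE 0.18, 95% interval -0.80 to -0.043, adjusted p = 0.133). NFKB2 was called in NB4 alone, yet the difference of 0.38 (SE 0.22, 95% interval -0.10 to 0.86, adjusted p = 0.288) did not pass. For RELB and TNF the estimates were -0.068 and 0.090, with intervals of -0.64 to 0.50 and -0.65 to 0.83, wide enough to hold sizeable differences in either direction. NFKB1 gave -0.22 (SE 0.19, 95% interval -0.64 to 0.19, adjusted p = 0.482) and CCL3 -0.46 (SE 0.35, 95% interval -1.20 to 0.28, adjusted p = 0.405).

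**Figure D3:**
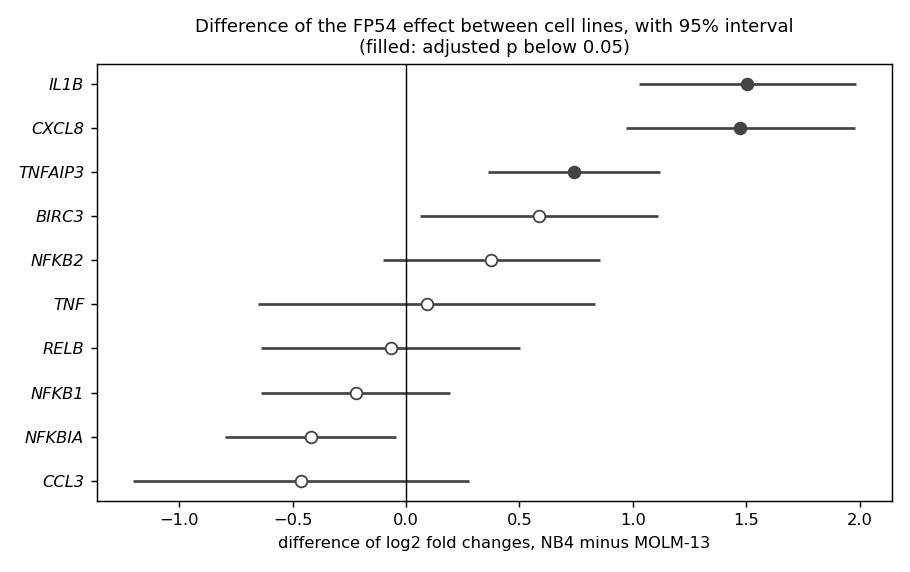
Difference between the cell lines in the FP54 effect on each of the 10 genes (NB4 log2 fold change minus MOLM-13 log2 fold change), with 95% intervals from the limma interaction model, filled points having an adjusted p below 0.05. IL1B, CXCL8 and TNFAIP3 are filled, at 1.51, 1.47 and 0.74, and the other intervals are open.

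In the order of their levels per length, TNFAIP3 led with DMSO in both lines (49.0 ± 5.20 RPKM in MOLM-13 and 56.1 ± 8.81 RPKM in NB4), followed by NFKBIA (33.8 ± 4.30 and 34.6 ± 2.08 RPKM) and NFKB2 (23.8 ± 4.19 and 17.1 ± 3.19 RPKM), with no overlap of libraries between these neighbours. Below them in MOLM-13 came RELB, CXCL8, BIRC3, NFKB1, IL1B, TNF and CCL3. The libraries of NFKB2 and RELB, RELB and CXCL8, BIRC3 and NFKB1, and IL1B and TNF overlapped there. In NB4 the order went on with RELB, CXCL8, NFKB1, TNF, CCL3, BIRC3 and IL1B, where RELB, CXCL8 and NFKB1 overlapped their neighbours, TNF overlapped NFKB1, and BIRC3 overlapped IL1B. With FP54, CXCL8 moved from the fifth place to the second in NB4 and IL1B from the lowest to above CCL3 and BIRC3 (its libraries overlapping those of CCL3, as those of CXCL8 did NFKBIA), while NFKBIA overtook TNFAIP3 in the means of MOLM-13, with overlapping libraries. Levels set across the lines come from tables normalised separately and were not tested.

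The wider pathway was read from lists of subunits, inhibitors, adaptors, receptors and targets, given by counts of calls and the median log2 fold change. Over all genes tested the shares called in either direction were 18.3% in MOLM-13 and 29.3% in NB4, and the medians 0.0033 and 0.070. List genes below the minimum mean of 1 RPKM were not counted, and a few reached it only through their FP54 libraries, which favours calls upward, so the counts describe the tested genes and set no list apart. Of the other subunits, RELA, the p65 partner of p50, gave 0.0090 in MOLM-13 and 0.091 in NB4 and was not called, with adjusted p of 0.974 and 0.463 in limma. REL, which encodes c-Rel, went from 2.13 ± 0.50 to 3.13 ± 0.251 RPKM in NB4 (log2 fold change 0.56, adjusted p = 0.0133), a call that was lost in 9 of the alternatives, among them both scalings and 5 of the 6 fits that leave out a library. In MOLM-13 REL gave 0.37 (adjusted p = 0.283). So 3 of 5 subunits were called higher and 0 lower in NB4, and 0 of 5 in either direction in MOLM-13, where voom on the recovered reads called 1 higher (RELB). The NB4 count higher was 1 after median-ratio scaling and 2 after quantile normalization. The subunit share called was 0% in MOLM-13 and 60% in NB4, beside 18.3% and 29.3% of all genes, and the median was 0.37 in MOLM-13 and 0.56 in NB4.

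Of 13 inhibitors and feedback regulators tested, 1 was called higher and 1 lower in MOLM-13 and 4 higher and 1 lower in NB4. These are 15.4% and 38.5% of the list, beside 18.3% of all genes in MOLM-13 and 29.3% in NB4, shares that rest on few calls. CYLD, a deubiquitinase that dampens the pathway, was called in both lines, at 0.51 in MOLM-13 and 0.59 in NB4, but fell short of the call after median-ratio scaling in each. Its MOLM-13 call was lost in 7 alternatives in all, among them a pseudocount of 1, the replicate block and 4 of the 6 fits that leave out a library, and its NB4 call also without DMSO replicate 2. In NB4, ZFP36, which destabilises cytokine mRNAs, rose from 3.22 ± 0.518 to 5.71 ± 0.879 RPKM, and the nuclear IκB relatives BCL3 and NFKBID rose by 0.80 and 0.68 on the log2 scale. In MOLM-13, ZFP36, BCL3 and NFKBID gave 0.54, 0.55 and 0.28 without a call, and without FP54 replicate 2 ZFP36 and BCL3 were called there. The lines were not shown to differ for these genes (adjusted p of 0.612, 0.658 and 0.229, limma interaction). NFKBIE, encoding IκBε, fell in NB4 from 30.6 ± 4.55 to 20.5 ± 1.11 RPKM (log2 fold change -0.57, adjusted p = 0.00149). After quantile normalization the NB4 calls of BCL3, NFKBID and NFKBIE were lost, NFKBID also with median-ratio scaling and NFKBIE also without DMSO replicate 2. After either median-ratio scaling or quantile normalization, 2 of the 13 were called higher in NB4 in place of 4, with 1 lower in each, so the NB4 share depends on the scaling. The list median was 0.19 in MOLM-13 and 0.20 in NB4.

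Among 25 IKK complex genes and adaptors tested in MOLM-13, 1 was called higher and 1 lower, and among 27 in NB4, 6 were called higher and 0 lower (4 and 2 after median-ratio scaling, 2 and 1 after quantile normalization). MAP3K14, the kinase NIK of the noncanonical arm, rose in both lines, from 1.38 ± 0.124 to 2.67 ± 0.441 RPKM in MOLM-13 and from 1.09 ± 0.197 to 1.92 ± 0.254 RPKM in NB4. Its NB4 log2 fold change of 0.77 came to 0.32 after quantile normalization, where the call was lost, as it was with a pseudocount of 1. IRAK1, a kinase that relays IL-1 and Toll-like receptor signals, was the largest fall in any of the lists, from 17.6 ± 3.71 to 6.52 ± 1.53 RPKM in MOLM-13, with 17.8, 13.8 and 21.2 RPKM in the DMSO and 4.83, 6.92 and 7.80 RPKM in the FP54 libraries. Its log2 fold change was -1.42 (adjusted p = 0.00376). In NB4 all FP54 libraries of IRAK1 also lay below the DMSO libraries. The change there was -0.38 (adjusted p = 0.00857, limma), under the minimum for a call, and was called after median-ratio scaling. The lines differed for IRAK1 by 1.04 (adjusted p = 0.0128, limma interaction), a call lost without DMSO replicate 1, DMSO replicate 3 or FP54 replicate 1. Its relative IRAK2 rose in NB4 (1.02) and gave -0.51 without a call in MOLM-13. The difference between the lines for IRAK2 was 1.53 (adjusted p = 4.28e-04, limma interaction). RBCK1, a part of the linear ubiquitin ligase, rose in NB4 from 7.15 ± 1.15 to 18.6 ± 0.913 RPKM. The list median was 0.10 in MOLM-13 and 0.27 in NB4, and the shares called in either direction, 8% and 22.2%, stand beside those over all genes, 18.3% and 29.3%.

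Receptors were called higher for 2 of 11 tested genes in MOLM-13 and for 5 of 9 in NB4, with 0 lower in each. The shares, 18.2% and 55.6%, stand beside 18.3% and 29.3% of all genes, so that in MOLM-13 receptors were called about as often as other genes. TNFRSF1B, the second TNF receptor, rose in both lines, from 63.5 ± 8.68 to 122 ± 22.8 RPKM in MOLM-13 and from 6.64 ± 0.650 to 13.7 ± 1.61 RPKM in NB4. CCR1, a receptor of CCL3, rose in NB4 from 5.40 ± 0.760 to 11.5 ± 1.29 RPKM. TLR6 rose in NB4 by 1.29 on the log2 scale. The receptor median was 0.27 in MOLM-13 and 0.60 in NB4, and after median-ratio scaling 4 receptors were called higher and 1 lower in NB4, and after quantile normalization 3 and 1.

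Target chemokines and cytokines had the highest median of the lists in both lines. Apart from CXCL8, TNF, IL1B and CCL3 themselves, 3 of 8 tested genes were called higher and 0 lower in MOLM-13, and 7 of 9 higher and 1 lower in NB4. The whole list, the 4 genes included, had a median log2 fold change of 0.51 in MOLM-13 and 1.1 in NB4, over the 12 and 13 of its 26 genes that reached the minimum. Calls in either direction made up 33.3% and 84.6% of these, beside 18.3% and 29.3% of all genes, shares that the loss of genes low in both groups and the entry of IL12B through its FP54 libraries in NB4 can raise. CCL2, which attracts monocytes, was the largest rise of the list in each line, from 5.35 ± 1.13 to 14.6 ± 6.11 RPKM in MOLM-13 (log2 fold change 1.38, adjusted p = 0.00864) and from 3.21 ± 0.326 to 18.1 ± 0.840 RPKM in NB4 (2.46, adjusted p = 9.40e-08). CXCL16 and LTB, the membrane partner of lymphotoxin, rose in MOLM-13 by 1.10 and 0.85 on the log2 scale, CXCL16 falling short of the call without DMSO replicate 3 or FP54 replicate 1, and with no filter on low values. LTB was also called higher in NB4, by 0.84.

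IL23A, a subunit of interleukin-23, was at 1.56, 2.47 and 1.52 RPKM with DMSO and 6.33, 7.51 and 4.48 RPKM with FP54 in NB4, a rise of 1.67, whereas in MOLM-13 it gave -0.26 without a call. The lines differed for IL23A by 1.94 (adjusted p = 6.75e-04, limma interaction). Its partner subunit IL12B rose in NB4 from 0.330, 0.320 and 0.189 RPKM to 1.72, 1.95 and 1.49 RPKM, and met the minimum through its FP54 libraries. IL12B was tested in only 3 of the NB4 fits that leave out a library, being under the minimum in the others. The interferon-inducible chemokine CXCL10 fell in NB4 from 10.4 ± 0.903 to 6.41 ± 1.30 RPKM (log2 fold change -0.70, adjusted p = 0.00175). After median-ratio scaling 8 genes of the whole list were called higher in NB4, and without FP54 replicate 2 of MOLM-13 7 of its genes were called higher there, against 10 and 4 with the deposited values of all libraries.

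Survival, adhesion and stress targets were called higher for 3 and lower for 1 of 22 tested genes in MOLM-13, and higher for 11, BIRC3 among them, and lower for 2 of 21 in NB4 (7 and 2 after median-ratio scaling), with medians of 0.24 and 0.54. The share called was 18.2% in MOLM-13, next to 18.3% of all genes, and 61.9% in NB4, next to 29.3%. FTH1, the ferritin heavy chain that stores iron, rose in both lines, from 734 ± 129.7 to 1424 ± 209 RPKM in MOLM-13 and from 370.2 ± 47.2 to 1605 ± 145 RPKM in NB4. NINJ1, which ruptures the membrane of dying cells, and CFLAR, an inhibitor of caspase-8, rose in MOLM-13 by 0.78 and 0.57 on the log2 scale, and the call of CFLAR was lost without DMSO replicate 1, DMSO replicate 3 or FP54 replicate 3. NINJ1 was also called higher in NB4, by 0.64, a call lost after median-ratio scaling and after quantile normalization. CFLAR gave 0.27 without a call in NB4. CD83, a marker of activated antigen-presenting cells, fell in MOLM-13 from 31.6 ± 0.821 to 19.0 ± 0.716 RPKM and gave 0.15 without a call in NB4, a difference of 0.88 between the lines (adjusted p = 3.28e-04, limma interaction). The secreted pattern receptor PTX3 rose in NB4 from 2.63 ± 0.0538 to 12.3 ± 0.655 RPKM and gave 0.073 without a call in MOLM-13, and the lines differed by 2.11 (adjusted p = 1.05e-05). IER3, an early stress gene, rose in NB4 by 2.12 from a DMSO mean of 0.478 RPKM, having met the minimum through its FP54 libraries. SOD2, the mitochondrial superoxide dismutase, and TNFAIP8 fell in NB4 by 0.71 and 0.62 on the log2 scale.

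Of the proteins that release or mature IL-1β and TNF, 1 of 7 tested was called higher and 1 lower in MOLM-13 and 2 of 6 higher and 1 lower in NB4, with medians of 0.16 and 0.063, the latter close to the 0.070 of all genes. With so few genes, the shares of 28.6% and 50% called, beside 18.3% and 29.3% of all genes, rest on 2 and 3 calls. ADAM17, the protease that sheds TNF from the cell surface, moved in opposite directions: it fell in MOLM-13 from 4.26, 4.09 and 4.07 RPKM to 2.38, 2.58 and 2.74 RPKM and rose in NB4 from 5.52, 4.26 and 4.95 RPKM to 7.54, 8.54 and 8.46 RPKM. The groups did not overlap in either line, and the difference between the lines was 1.40 (adjusted p = 1.17e-04, limma interaction). RHBDF2, which brings ADAM17 to the surface, rose in NB4 from 1.24 ± 0.165 to 2.60 ± 0.149 RPKM. CASP1, the protease that cleaves the IL-1β precursor, fell in NB4 from 4.66 ± 0.318 to 3.12 ± 0.0801 RPKM, in the line where IL1B mRNA rose most, a call that was lost with a pseudocount of 1. NLRC4, an inflammasome sensor, rose in MOLM-13 from a mean of 0.673 to 1.33 RPKM, meeting the minimum through its FP54 libraries, and its call was lost with a pseudocount of 1 or without DMSO replicate 1. NLRC4 was tested in only 3 of the MOLM-13 fits that leave out a library, being under the minimum in the others.

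**Figure D4:**
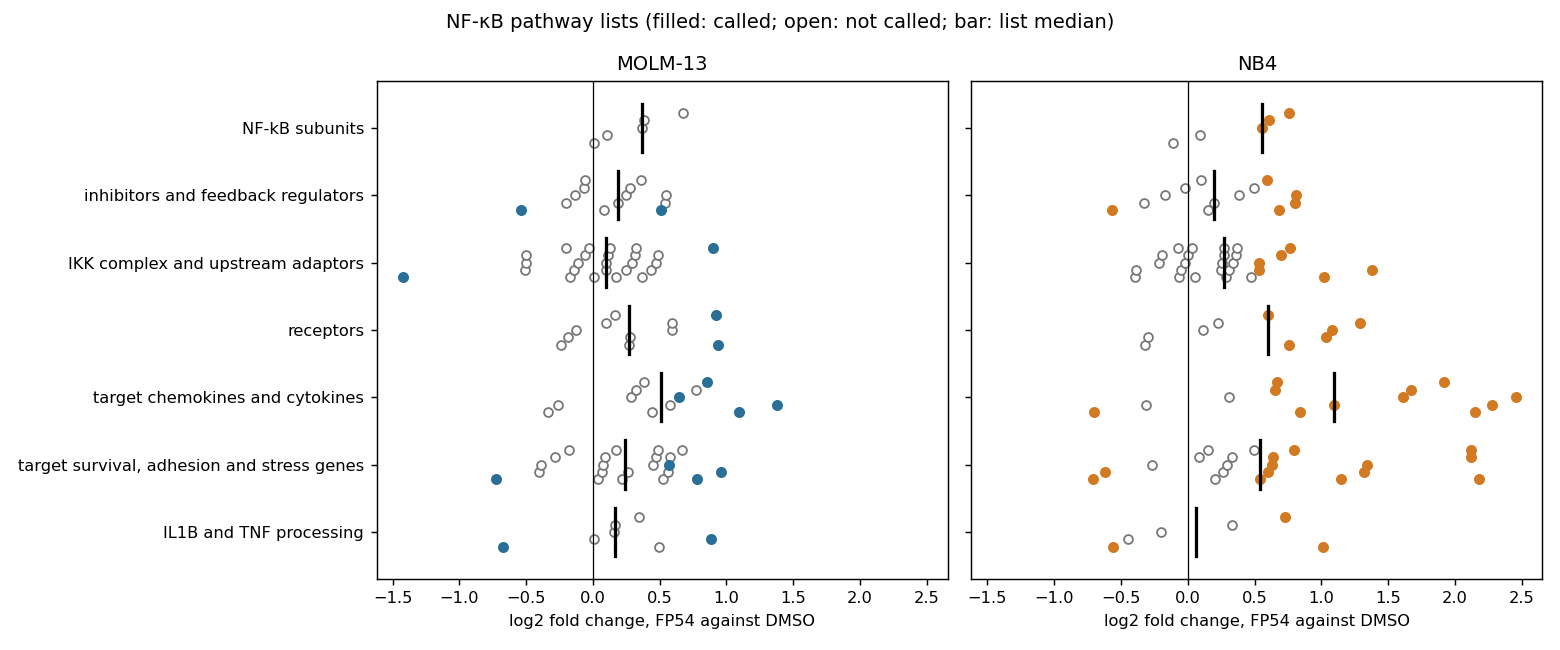
Fitted log2 fold change of FP54 against DMSO for each tested gene of the NF-κB pathway lists in MOLM-13 (left) and NB4 (right), filled where called and open where not, with a bar at the list median. Target chemokines and cytokines lie farthest to the right in NB4, with a median of 1.1, and every list has called genes on the right in NB4.

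The genes whose levels followed NFKBIA most closely over the 12 libraries, each centred within its cell line, were ANXA6 (Pearson r = 0.957), ILK (0.926), LMAN2L (0.924), OSER1 (0.922) and HMG20B (0.916). None of the 10 genes was near them, and with NFKBIA the other members gave r from -0.50 (TNFAIP3) to 0.53 (RELB). These values describe libraries that share treatment and sequencing depth, and carry no test.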

How the data were processed

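According to the sources, poly(A) RNA was selected in repeated rounds and libraries were made with a stranded kit. The authors trimmed reads with Cutadapt 4.8, removed duplicates with Clumpify, aligned to hg38 with STAR 2.7.11b and counted reads on protein-coding genes with featureCounts 2.0.3. The counts were converted to RPKM, as deposited by the authors, and the strand setting of the counting is not given in the sources used here. The other 10 samples (m6A-seq and polysome-seq) are not used here.

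Whole reads were worked back from the RPKM steps and annotated gene lengths (98.6 to 98.9% of values below 200 reads came out whole within 0.05 reads). TNFAIP3 and BIRC3 took the length, 6393 and 7518 bases, at which all of their values came out whole. In each line, limma 3.58.1 in R 4.3.3 (lmFit, then eBayes with an intensity trend) was fitted to log2(RPKM + 0.1) where a gene's mean over the 6 libraries reached 1 RPKM, with Benjamini-Hochberg adjustment of p over all genes tested. The tables were normalised separately, so only effects were tested between the lines, as an interaction. Levels of the lines given side by side were not tested. With 3 libraries against 3, an exact two-sided permutation p cannot be below 0.1, so single-gene permutation tests are not given. Python 3.11.15 (pandas 2.3.3, numpy 2.4.6, matplotlib 3.10.9) served for summaries and figures. The fits were tested on simulated data.

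The 10 genes and the pathway lists were chosen with earlier results of these data known. Of the other pathway genes, those named are, per list and line, up to 3 called genes with the largest fold change in each direction, together with REL, RELA and genes that share sequence or overlap with one of the 10. A named result that the rule would add is not reported here. Alternatives were the pseudocount, the filter, the scaling, the block, other variance settings, voom on the recovered reads, other call rules and leaving out each library. The subtraction of the olfactory receptor level was added after the data had been seen.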

Additional observations from a re-analysis of the deposited data

Results flagged for a closer look

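The response to FP54 differed between the cell lines for 3 of the 10 genes, by the interaction term of the limma model over all 12 libraries. For IL1B, the cytokine precursor, the log2 fold change was larger in NB4 than in MOLM-13 by 1.51, with rises in both lines of 2.15 and 0.65. For CXCL8, encoding interleukin-8, the difference was 1.47, from a rise of 1.92 in NB4 and a change of 0.44 in MOLM-13 that was not called. For TNFAIP3, encoding A20, the difference was 0.74, from a called change of -0.54 in MOLM-13 and a change of 0.20 in NB4 that was not called. In NB4 the FP54 libraries also had a lower sum of granule markers and a higher olfactory receptor level than the DMSO libraries. In MOLM-13 the FP54 libraries had a higher sum of the monocytic and myeloid markers. The part of these shifts in the differences between the lines was not tested.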

How the results depend on the processing

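In MOLM-13, where 1 of the 10 genes was called higher and 1 lower, the count higher was 0 with a filter at a mean RPKM of 5 (fewer genes tested, IL1B among those dropped), 2 with voom on the recovered reads (RELB and IL1B) and 0 under a stricter call (p below 0.05, log2 change of 1 or more). Leaving out 1 library gave 0 to 3: 0 without DMSO replicate 1, DMSO replicate 3 or FP54 replicate 1, and 3 without DMSO replicate 2 (RELB, BIRC3, IL1B) or FP54 replicate 2 (TNF, IL1B, CCL3). Without FP54 replicate 3 the single call was RELB in place of IL1B. The count lower was 0 after quantile normalization and under the stricter call, and 0 to 1 with a library left out, 0 without DMSO replicate 2 or FP54 replicate 2. In NB4 the count higher went from 6 to 3 under the stricter call (BIRC3, CXCL8, IL1B) and to 4 after median-ratio scaling (RELB and TNF lost). At the filter of 5, IL1B, BIRC3 and CCL3 were not tested in NB4. The 3 differences between the lines kept their calls under all alternatives that tested them. Where not stated, the cause was not tested.

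Replicate numbers did not pair the libraries (correlations of same-numbered deviations from -0.26 to -0.058 in MOLM-13 and -0.14 to 0.12 in NB4). In MOLM-13 each DMSO library correlated best with an FP54 library of another number. These pairs were DMSO 1 with FP54 3 (0.59), DMSO 2 with FP54 1 (0.49) and DMSO 3 with FP54 2 (0.47). In NB4 not every library correlated best with its own number. A block by replicate number does not follow the MOLM-13 pairs, whose origin was not tested. With the replicate number as a block, the 10 genes had 1 call higher and 1 lower in MOLM-13, 6 higher in NB4 and 3 differences between the lines, and over all genes the differences lower in NB4 went from 332 to 218.

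Counts over all genes that moved by over 1.5 times were, for NB4, 1834 higher to 4967 with no filter, 789 at the filter of 5, 1184 after median-ratio scaling and 675 under the stricter call, and 1050 lower to 2009 and 138 under the last of these settings. For MOLM-13, 903 higher and 878 lower became 509 and 560 at the filter of 5 and 240 and 325 under the stricter call, and down to 540 and 462 with a library left out. For the interaction, 926 higher and 332 lower in NB4 became 3381 and 583 with no filter, 432 and 201 at the filter of 5, 630 and 833 after median-ratio scaling, 332 lower became 891 after quantile normalization, and a library left out gave down to 498 and 152. The shallowest MOLM-13 library, with 22 reads of TNF and 8 of CCL3, limits what can be said of those genes.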

Other observations

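Several genes of the pathway lists were listed below the minimum mean of 1 RPKM and entered no test. In NB4, the chemokine CXCL16 was at 0.329, 0.252 and 0.256 RPKM with DMSO and 1.01, 0.738 and 0.877 RPKM with FP54. NLRC4 in NB4 was at 0.575, 0.496 and 0.425 RPKM with DMSO and 1.05, 1.07 and 1.03 RPKM with FP54. The FP54 libraries lay above the DMSO libraries for both of these genes. Upward shifts were common in NB4, where 34.3% of the genes tested had all FP54 libraries above all DMSO libraries. With no filter on low values, 4967 of 17790 genes were called higher there and 1092 lower. The shift therefore does not set these genes, or CCL4 below, apart. The olfactory receptor mean of the NB4 libraries was 0.0017 to 0.0037 RPKM with DMSO and 0.0496 to 0.0549 RPKM with FP54. CCL4, a chemokine encoded beside CCL3, was at 0.0674, 0.0342 and 0.0642 RPKM with DMSO and 0.174, 0 and 0.324 RPKM with FP54 in MOLM-13, and at 0.405, 0.418 and 0.199 RPKM with DMSO and 0.684, 0.527 and 0.426 RPKM with FP54 in NB4, where the FP54 libraries lay above the DMSO libraries.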
